A study of Mus musculus with 6 samples.

Results

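The dual-specificity MAPK phosphatases are enzymes that switch off mitogen-activated protein kinases (MAPKs), and 9 of their genes, Dusp1, Dusp2, Dusp3, Dusp4, Dusp5, Dusp6, Dusp7, Dusp10 and Dusp16, were described in splenic monocytes of mice. They were chosen by gene symbol and are 9 of the 46072 gene identifiers in the tables. Each symbol stood on a single identifier. Polyadenylated RNA was sequenced from monocytes of 3 Con and 3 Van mice, with 1 library per mouse. All 6 were female mice of genotype C57BL/6, 8 to 10 weeks old when obtained, per the methods. The Van mice were gavaged with vancomycin, an antibiotic that stays largely in the gut, at 2 mg per day (1 mg, 2 times a day) for 6 days, and the Con mice with water. Both groups were then left without antibiotic for 6 to 8 days per the labels, and for 8 days per the text on the mice used for RNA. The monocytes were obtained by magnetic removal of other spleen cells, and per the study's results text they were not stimulated before RNA was taken. A group of mice that also received a bacterial lipid was not analysed here. The study's data statement names another series, so these libraries were matched to its groups by treatment labels.

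A MAPK is active when both a threonine and a tyrosine in its activation loop carry phosphate, and a dual-specificity phosphatase removes both. Signals from Toll-like receptors and from growth factors such as CSF1 turn on the ERK, JNK and p38 kinases in monocytes, and several of the phosphatase genes are themselves switched on by these kinases, which closes a negative feedback loop. DUSP1, DUSP2, DUSP4 and DUSP5 are nuclear proteins whose genes are rapidly induced. DUSP6 and DUSP7 are cytoplasmic and prefer ERK, and DUSP10 and DUSP16 prefer JNK and p38. DUSP3 is a small phosphatase that lacks the MAPK-binding domain of the others. Because the genes respond within minutes to stimulation, their mRNA is also known to change while cells are being isolated.

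None of the 9 genes passed the test between Van and Con. The values of the 3 Van and the 3 Con mice overlapped for each of the 9, whereas the groups did not overlap for 22.5% of all 16138 genes tested. Mean levels of Dusp1, the most abundant of them, were 2260 ± 708 CPM in Con and 2245 ± 374 CPM in Van (SD, n = 3 each). The mice within a group differed more for most of these genes than for most other genes.

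The stretches before the starts of Dusp1, Dusp5 and Dusp16 were picked after values and sequences were seen. These 3 genes varied strongly from mouse to mouse and held at least part of a site known for signal-activated factors. Dusp10, which varied as strongly, held none of the letters searched. The choice used both traits, so it shows nothing about a link between them. They are 100 bases each, taken from RefSeq on GRCm38.p6 and printed 5′ to 3′ on the strand of the gene. Capitals mark the letters TGACG, read on either strand, which is the core of the cyclic AMP response element, and in Dusp5 also the CArG box, the site bound by serum response factor.
Dusp1: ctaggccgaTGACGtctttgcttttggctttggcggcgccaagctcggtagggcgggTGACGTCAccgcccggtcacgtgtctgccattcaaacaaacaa
Dusp5: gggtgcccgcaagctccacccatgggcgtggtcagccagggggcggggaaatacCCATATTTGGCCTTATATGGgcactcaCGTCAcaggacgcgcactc
Dusp16: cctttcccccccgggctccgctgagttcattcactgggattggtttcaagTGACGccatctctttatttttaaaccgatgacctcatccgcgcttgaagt

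The Dusp1 stretch is chr17:26508573-26508672 on the minus strand, 200 to 101 bases before the RefSeq start. GENCODE M21 also has Dusp1 transcripts that start farther upstream, so the stretch falls within the gene's span there, in an intron. It held the full element TGACGTCA once, which overlaps 2 of the 3 cores found, and an E-box (CACGTG) that is left in lower case. The full element stood in 1.79% of the 32851 RefSeq promoter windows (250 bases before to 50 after a start) and the core in 20.8%. The Dusp5 stretch is chr19:53529009-53529108 on the plus strand, 136 to 37 bases before the start. It held 2 CArG boxes with no base between them and 1 core. A CArG box stood in 1.63% of all windows, and this motif was added after the sequences were seen. In GENCODE M21 this stretch overlaps an exon of AC137853.2, an antisense transcript on the other strand. The Dusp16 stretch is chr6:134792649-134792748 on the minus strand, 120 to 21 bases before the start, and held 1 core.

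Of the other windows, that of Dusp2 held 1 core and 1 E-box (an E-box stood in 7.15% of all windows). The windows of Dusp3, Dusp6, Dusp7 and Dusp10 held none of the letters searched. AGAACA, letters of the glucocorticoid receptor's site found in 19.0% of all windows, was in none of the 8 windows. Neither the NF-kB site nor the serum response element, each searched as 1 fixed run of letters and present in 0.155% and 0.0639% of all windows, was found in the 8. The window of Dusp4 was not analysed here. A match describes letters in these windows only.

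Total counts were between 43383919 and 61834407 per library. The monocyte markers Csf1r, Cx3cr1, Itgam and Lyz2 and 7 others summed to between 22165 and 22776 CPM in Con and between 20882 and 21976 CPM in Van. CPM is the count relative to the library's total after TMM scaling. Among them Ccr2, the receptor that brings classical monocytes out of the bone marrow, was lower in Van (log2 fold change -0.83, adjusted p = 0.0283, edgeR's quasi-likelihood F test, Benjamini-Hochberg adjusted), as was Fcgr1 (-0.32, adjusted p = 0.0328). Markers of B cells summed to at most 20.5 CPM, of T cells to at most 4.66 CPM and of neutrophils to at most 8.27 CPM in any library, and Ly6g was at 0 in all 6. The 4 NK cell markers summed to between 26.0 and 39.0 CPM in Con and to between 14.6 and 21.9 CPM in Van, with Klrk1 called lower. Of the 5 conventional dendritic cell markers, which summed to between 86.0 and 118 CPM in Con and to between 87.7 and 102 CPM in Van, Clec9a was called lower (log2 fold change -1.12, adjusted p = 0.0131 from edgeR). Plasma cell markers summed to between 323 and 424 CPM in Con and to between 265 and 353 CPM in Van, platelet markers to at most 30.6 CPM and plasmacytoid dendritic cell markers to at most 65.1 CPM, with none called. The 6 erythroid markers summed to between 38.6 and 80.5 CPM in Con and to between 133 and 293 CPM in Van, with 3 of the 6 called higher. Splenic macrophage markers summed to between 1467 and 1707 CPM in Con and to between 1887 and 2218 CPM in Van, with none of the 5 called. The part of these cell types in the levels of the phosphatase genes was not tested, and in bulk RNA fewer cells of a type and less RNA per cell cannot be told apart.

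The 9 genes spanned a wide range of levels. On the FPKM scale, which accounts for transcript length, the order of mean levels over the 6 libraries was Dusp1, Dusp5, Dusp2, Dusp16, Dusp6, Dusp3, Dusp7, Dusp10 and Dusp4. Mean FPKM was 877 for Dusp1, 124 for Dusp5, 68.6 for Dusp2, 57.2 for Dusp16 and 54.0 for Dusp6. It was 31.2 for Dusp3, 7.83 for Dusp7, 5.18 for Dusp10 and 0.397 for Dusp4. The ranges over libraries overlapped for Dusp2 and Dusp16, for Dusp16 and Dusp6, and for Dusp7 and Dusp10, so that these neighbours were not separated. The other neighbours kept their order in all 6 libraries with no overlap. Dusp1 alone made up between 64.9% and 78.1% of the summed FPKM of the 9 genes in a library. When levels were taken as CPM per kilobase of annotated exons, Dusp6 (57.4) stood above Dusp16 (43.0), and the other 7 genes kept their place.

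**Figure D1:**
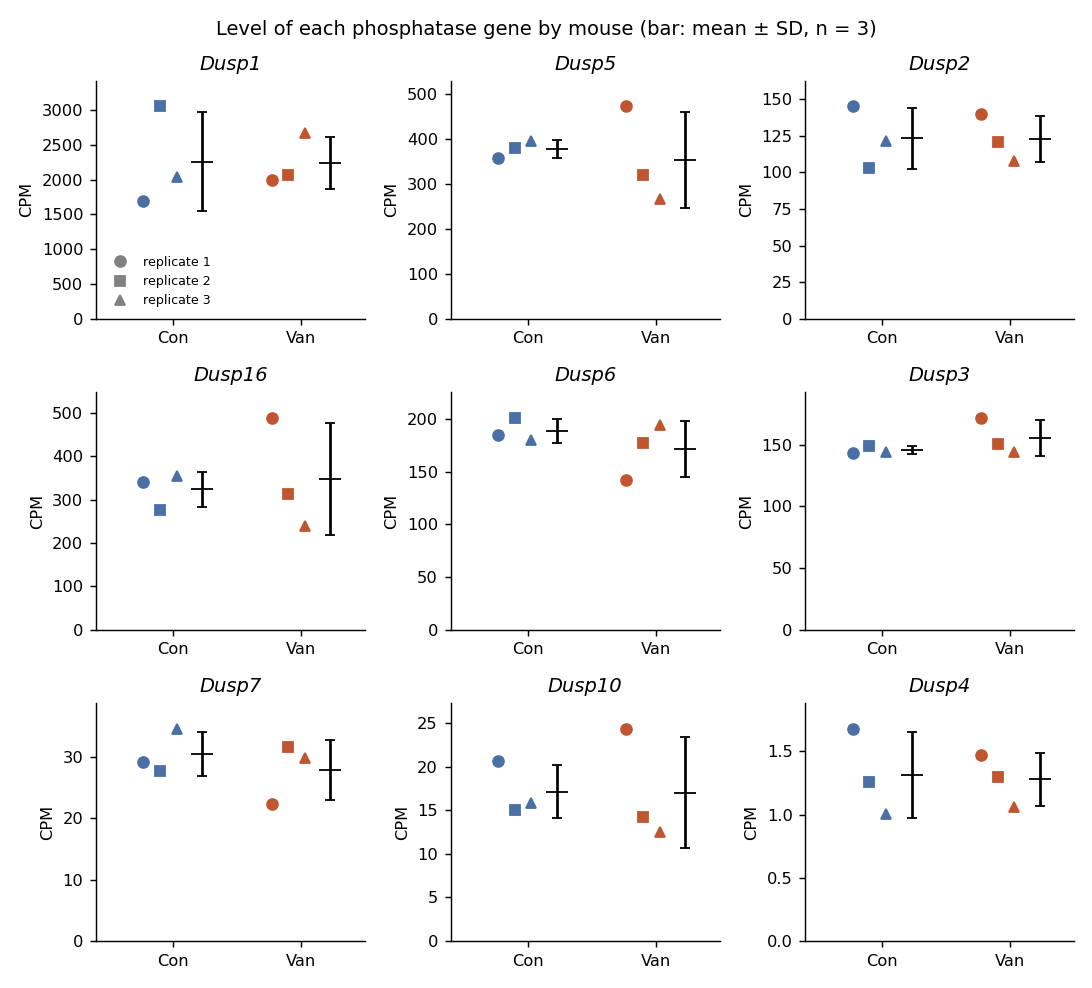
Level of each of the 9 phosphatase genes in CPM (vertical axes, each from 0) for the 3 Con and 3 Van mice, ordered by mean FPKM. Points are mice, the marker shape is the replicate number, and the bars give the mean ± SD (n = 3). The points of the groups overlap in each panel, and Van replicate 1 is the highest mouse for Dusp5, Dusp16, Dusp3 and Dusp10.

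Among the nuclear, inducible phosphatases, Dusp1 (MKP-1, which acts on p38 and JNK and limits inflammatory cytokines) is at chr17:26505590-26562128 on the minus strand of GRCm38. Its level was 1691, 3053 and 2037 CPM in Con replicates 1, 2 and 3 and 1991, 2070 and 2674 CPM in Van replicates 1, 2 and 3. The highest and the lowest mouse were both Con mice, 1.81-fold apart, and all Van mice lay between them. The log2 fold change, Van over Con, was -0.01 (SE 0.20, 95% interval -0.47 to 0.45, adjusted p = 0.989 from edgeR), an interval of 0.721-fold to 1.37-fold. Without Con replicate 2 the log2 fold change was 0.27 (adjusted p = 0.451).

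Dusp2 (PAC-1, first known from activated lymphocytes, chr2:127336159-127338376, plus strand) was measured at 145, 103 and 122 CPM in Con and 140, 121 and 108 CPM in Van. Replicate 1 was the highest mouse in each group, and the means, 123 ± 21.1 and 123 ± 16.0 CPM (SD, n = 3), lay within 1 SD of each other. Its log2 fold change was 0.00 to 2 decimals (SE 0.13, 95% interval -0.31 to 0.30).

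Dusp5 (an ERK phosphatase that also holds ERK in the nucleus, chr19:53529109-53542431, plus strand) was measured at 357, 380 and 396 CPM in Con and 473, 320 and 266 CPM in Van. The 3 Con mice lay between the highest and lowest Van mouse, and the SD was 19.3 CPM in Con and 107 CPM in Van (n = 3 each). Its log2 fold change was -0.10 (SE 0.18, 95% interval -0.50 to 0.31, adjusted p = 0.854 from edgeR). Without Van replicate 1 it was -0.37 (adjusted p = 0.109), the smallest adjusted p of any of the 9 genes over all settings run. AC137853.2 shares 22.1% of the exonic bases of Dusp5 on the other strand, and whether counting used the strand is not given in the sources used here.

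Dusp4 (MKP-2, a nuclear phosphatase of ERK, JNK and p38, chr8:34807297-34819894, plus strand) was the least abundant. It was measured at 1.68, 1.26 and 1.01 CPM in Con and 1.47, 1.30 and 1.06 CPM in Van, from counts between 43.5 and 90.2 per library. The 3 Van mice lay within the range of the Con mice. Its 95% interval, -0.69 to 0.59 on the log2 scale, was the widest of the 9.

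Of the cytoplasmic phosphatases, Dusp6 (MKP-3, a feedback inhibitor and common readout of ERK, chr10:99263231-99267489, plus strand) was measured at 185, 201 and 179 CPM in Con and 142, 177 and 194 CPM in Van. Van replicate 1 was the lowest mouse and the other two Van mice lay within or next to the Con values. The log2 fold change was -0.14 (SE 0.11, 95% interval -0.39 to 0.11, adjusted p = 0.595 from edgeR), and -0.02 without Van replicate 1.

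Dusp7 (chr9:106368632-106375724, plus strand), the nearest relative of Dusp6 among the 9, was measured at 29.1, 27.8 and 34.6 CPM in Con and 22.3, 31.5 and 29.7 CPM in Van. Van replicate 1 was again the lowest mouse. Its log2 fold change was -0.13 (SE 0.14, 95% interval -0.44 to 0.18), and 0.01 without that mouse.

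The JNK and p38 phosphatases had the widest spread among mice. Dusp16 (MKP-7, chr6:134715468-134792625, minus strand) was measured at 340, 277 and 353 CPM in Con and 489, 313 and 239 CPM in Van. Both the highest and the lowest mouse were Van mice, 2.04-fold apart, and the log2 fold change was 0.10 (SE 0.23, 95% interval -0.41 to 0.62, adjusted p = 0.883 from edgeR). It was -0.23 without Van replicate 1.

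Dusp10 (MKP-5, chr1:184013302-184075636, plus strand) was measured at 20.7, 15.0 and 15.8 CPM in Con and 24.4, 14.2 and 12.6 CPM in Van. The same mouse, Van replicate 1, was highest and Van replicate 3 lowest. The means were 17.1 ± 3.08 and 17.0 ± 6.40 CPM (SD, n = 3), with a log2 fold change of -0.01 (SE 0.24, 95% interval -0.56 to 0.54).

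Dusp3 (VHR, chr11:101971143-101987013, minus strand), the small phosphatase, was the most even. It was measured at 143, 149 and 144 CPM in Con and 172, 150 and 144 CPM in Van, and all mice but Van replicate 1 lay between 143 and 150 CPM. Its log2 fold change was 0.09 (SE 0.07, 95% interval -0.07 to 0.26), which had the smallest p of the 9 genes (adjusted p = 0.593 from edgeR), and 0.02 without Van replicate 1. Gm20659, an antisense transcript, shares 12.9% of the exonic bases of Dusp3 and had a count of at most 1.80 in any library.

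Across the 9 genes, none was called higher or lower at an adjusted p of at most 0.05, against 2.00% of all genes tested (1.08% called higher and 0.917% called lower), and none had an unadjusted p under 0.05, against 16.5% of all genes (8.37% higher and 8.14% lower). With 9 genes, the overall share called would give less than 1 call. DESeq2's Wald test, which called 6.10% of all genes, and limma on log2(FPKM + 1) values, which called 0.130%, also called none of the 9. At an unadjusted p under 0.05, DESeq2 had none of the 9, against 16.4% of all genes, and limma none, against 15.6%. The fitted change was above 0 for 2 genes and below 0 for 7, with a median of -0.01, and the median over all genes tested was 0.00 to 2 decimals. For each gene, exact permutation of the mice (two-sided, on mean CPM) gave p = 0.3 for Dusp3 and higher values for the other 8, and 0.1 is the smallest p that 3 mice against 3 can give. The 95% intervals ran from 0.950-fold to 1.20-fold for Dusp3, from 0.766-fold to 1.08-fold for Dusp6, from 0.706-fold to 1.24-fold for Dusp5, from 0.751-fold to 1.53-fold for Dusp16 and from 0.681-fold to 1.45-fold for Dusp10. A change within these limits cannot be told from no difference with 3 mice per group.

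**Figure D2:**
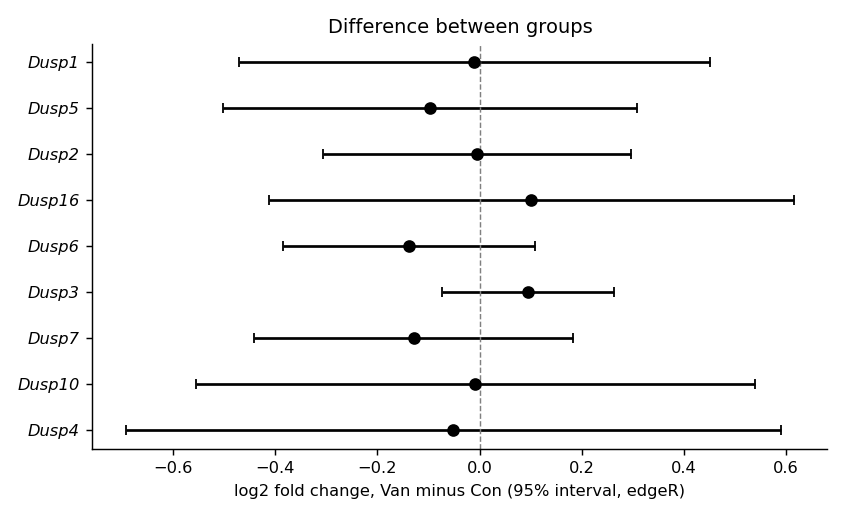
Log2 fold change of each phosphatase gene, Van over Con (horizontal axis), from edgeR's fit over all genes. Points are estimates from 3 mice per group and bars are 95% intervals. Each bar crosses 0, from the narrowest (Dusp3, -0.07 to 0.26) to the widest (Dusp4, -0.69 to 0.59).

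The genes fell along different orders of the mice. Dusp1 and Dusp6 were both highest in Con replicate 2 and had Van replicate 3 as their highest Van mouse. Dusp5, Dusp10 and Dusp16 were each highest in Van replicate 1 and lowest in Van replicate 3. In Van replicate 1, the level relative to the gene's own mean was 0.58 on the log2 scale for Dusp16, 0.55 for Dusp10, 0.39 for Dusp5 and 0.20 for Dusp3, while it was -0.33 for Dusp6 and -0.37 for Dusp7. In Van replicate 3, Dusp16 was at -0.45, Dusp5 at -0.43 and Dusp10 at -0.41, while Dusp1 was at 0.28. In Van replicate 1, Dusp1 was at -0.15, on the side of Dusp6 and Dusp7. Whether the genes divide by the kinases they act on was not tested. These are 6 libraries, and the orders were seen in the data.

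**Figure D3:**
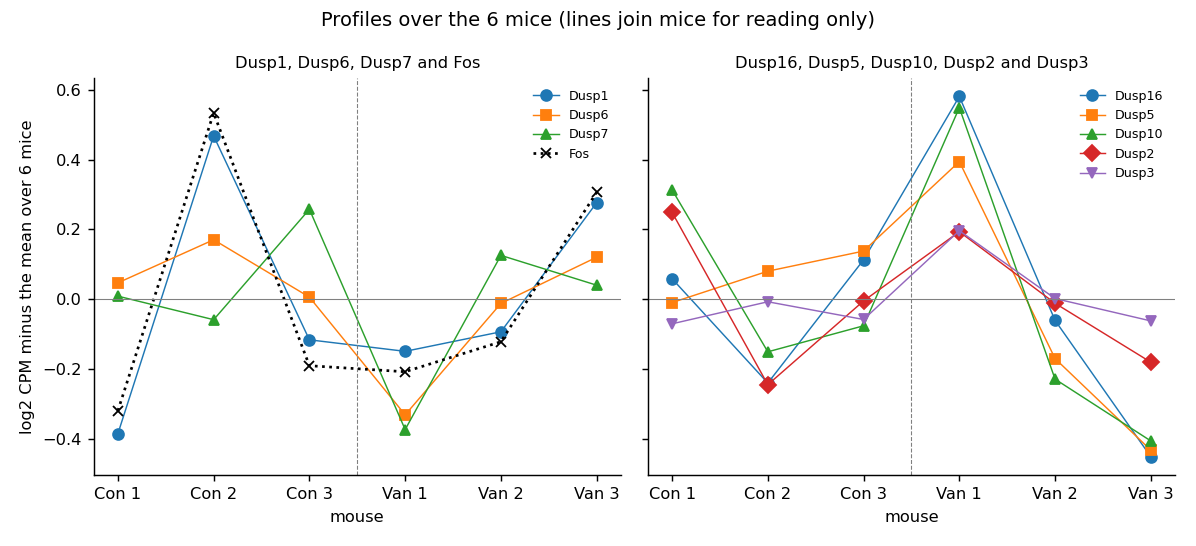
Level of the phosphatase genes in each of the 6 mice (horizontal axis) as log2 CPM centred on the gene's own mean (vertical axis), with 1 line per gene and Fos for comparison. Dusp1 follows Fos, with Con replicate 2 highest, and Dusp5, Dusp10 and Dusp16 are highest in Van replicate 1. Dusp4, the least abundant, is not drawn.

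Over 9912 genes with a mean of at least 5 CPM, the genes whose profile over the 6 libraries was most like that of Dusp1 were Dclre1b (root-mean-square difference 0.036 on the log2 scale), Fos (0.057) and Gm20658 (0.082). Fos, a subunit of the AP-1 transcription factor and an immediate early gene, was measured at 1643, 2968 and 1797 CPM in Con and 1775, 1884 and 2535 CPM in Van. It shared the high values of Dusp1 in Con replicate 2 and Van replicate 3. For Dusp3 the most alike were Slc25a37 (0.027), Cmip (0.028) and Rb1cc1 (0.028), but over so even a profile many genes lie close. Chosen after its values were seen, Cd83, a surface protein of activated antigen-presenting cells, was near Dusp16 (0.076), with 292, 240 and 296 CPM in Con and 391, 233 and 191 CPM in Van. These likenesses describe 6 libraries only.

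The nonclassical monocyte markers Ace, Cd300e, Treml4 and Spn, known from the patrolling cells, were set beside Dusp16 and Dusp5. Ace was 2728, 2261 and 2978 CPM in Con and 3527, 2820 and 2765 CPM in Van. Cd300e was 267, 224 and 289 CPM in Con and 326, 266 and 216 CPM in Van. Treml4 was 439, 428 and 463 CPM in Con and 561.5, 496 and 463 CPM in Van. Spn was 883, 811 and 1023 CPM in Con and 1004, 784 and 684 CPM in Van. Of the 4, only Cd300e was, like Dusp16, both highest in Van replicate 1 and lowest in Van replicate 3. Ace and Treml4 were highest in Van replicate 1 but lowest in Con replicate 2, and Spn was highest in Con replicate 3 and lowest in Van replicate 3. Cx3cr1, a receptor most abundant on these cells, was 521, 559 and 517 CPM in Con and 501, 508 and 407 CPM in Van, highest in Con replicate 2. Ccr2, of classical monocytes, was 757, 757 and 680 CPM in Con and 316, 444 and 473 CPM in Van, lowest in Van replicate 1. The part of monocyte subsets in the levels of the phosphatase genes was not tested, and these markers were picked from the monocyte list after their values were seen.

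The SD between mice of a group was computed on the log2 CPM scale for the 8 phosphatase genes with a mean of at least 5 CPM, a comparison chosen after the values were seen. Its median was 0.26, against 0.10 over all 9912 genes. It was 0.40 for Dusp10, 0.39 for Dusp16, 0.35 for Dusp1 and 0.30 for Dusp5, each above at least 95.7% of these genes. Dusp7 (0.22), Dusp2 (0.22) and Dusp6 (0.17) were above at least 80.3%, and Dusp3 (0.10) was near the median. A single mouse carried much of this. Without Van replicate 1 the SD was 0.22 for Dusp16, 0.22 for Dusp10, 0.12 for Dusp5, 0.14 for Dusp7 and 0.088 for Dusp6. Without that mouse Dusp2 was at 0.21 and Dusp1 at 0.39. Without Con replicate 2 the SD of Dusp1 was 0.22. The MAPKs they act on were more even, with a median SD of 0.06 for the 6 MAPK genes at this level, as were the 7 MAP kinase kinases (0.06). For 24 immediate early genes the median was 0.17, for 6 of the small dual-specificity phosphatases 0.17, and for 6 ERK output genes 0.21.

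**Figure D4:**
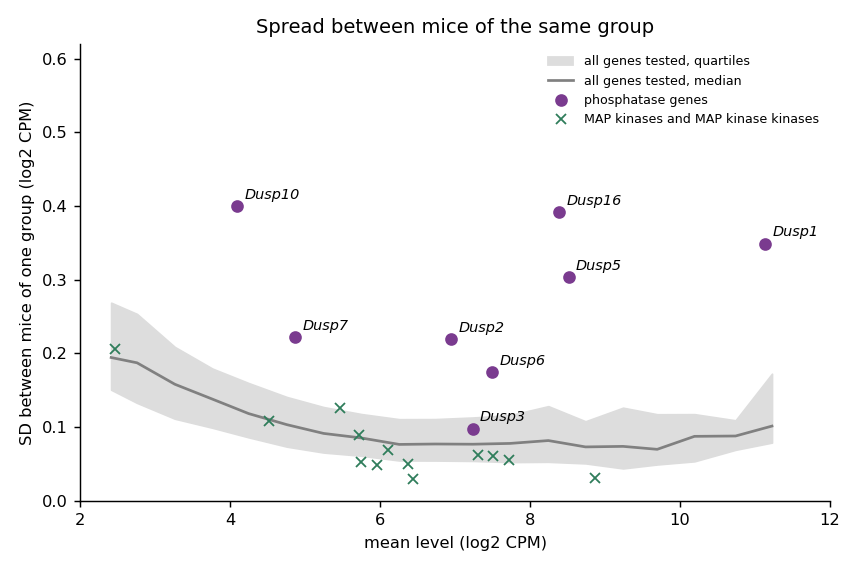
SD between mice of the same group in log2 CPM (vertical axis) against mean level in log2 CPM (horizontal axis) for genes with a mean of at least 5 CPM. Circles are the phosphatase genes, crosses are MAP kinases and MAP kinase kinases, and the line and band give the median and quartiles of all genes tested at that level. The circles of 7 of the 8 genes lie above the band, and Dusp3 lies within it.

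The rest of the family and the pathway were read from the same fit, as counts beside the shares of all genes called. These shares were 2.00% by edgeR, 6.10% by DESeq2 and 0.130% by limma. At an unadjusted p under 0.05 from edgeR, 8.37% of all genes were higher and 8.14% lower. Dusp8 and Dusp9, the remaining members with a MAPK-binding domain, were near the limit of detection. Dusp8 had 6.33, 0 and 0 counts in Con and 19.2, 34.7 and 15.8 counts in Van. Its groups did not overlap, and it was not called (adjusted p = 0.152 from edgeR), but DESeq2 called it (adjusted p = 0.0479). Dusp9 had between 10.4 and 39.5 counts per library. Of 15 small dual-specificity phosphatases without that domain, 8 were tested, none was called by edgeR, DESeq2 or limma, and none had an unadjusted p under 0.05. The smallest p among them was that of Dusp18, with 6.98 ± 1.06 CPM in Con and 8.67 ± 2.19 CPM in Van (SD, n = 3). Of 6 phosphatases of other families that act on MAPKs, 4 were tested and none was called by edgeR, but DESeq2 called Ptpn7, a tyrosine phosphatase of ERK and p38. Ptpn7 was 20.9, 19.6 and 18.0 CPM in Con and 11.8, 15.0 and 14.6 CPM in Van, a difference of -0.50 on the log2 scale (SE 0.11, adjusted p = 0.0626 from edgeR). All 3 Van mice were below all 3 Con mice.

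Of 10 MAPK genes, the substrates, 8 were tested and none was called by edgeR or limma. DESeq2, which called 6.10% of all genes, called 3. At an unadjusted p under 0.05, 2 were higher and 1 lower, where 8.37% of all genes were higher and 8.14% lower. Mapk9, which encodes JNK2, had the smallest p, with 74.6 ± 3.16 CPM in Con and 62.4 ± 3.32 CPM in Van, a difference of -0.26 on the log2 scale (adjusted p = 0.0912 from edgeR). Mapk14, which encodes p38α, was 439 ± 12.2 CPM in Con and 497 ± 4.80 CPM in Van (0.18, adjusted p = 0.113 from edgeR). Mapk7 was 49.4 ± 1.76 CPM in Con and 57.8 ± 2.18 CPM in Van (0.23, adjusted p = 0.109 from edgeR). Both were chosen for mention after they were seen. Of the 7 MAP kinase kinases, all tested, none was called by edgeR or limma and 1 by DESeq2, against 6.10% of all genes. At an unadjusted p under 0.05, 2 were higher, against 8.37% of all genes. Map2k2, which activates ERK, was 80.9 ± 1.85 CPM in Con and 93.2 ± 1.70 CPM in Van (0.20, adjusted p = 0.102).

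Of 15 MAP kinase kinase kinases and TAB adaptors, none was called by edgeR or limma and 1 by DESeq2, against 6.10% of all genes. At an unadjusted p under 0.05 there were 2 higher and 2 lower, where 8.37% of all genes were higher and 8.14% lower. Map3k6, which encodes a relative of the stress kinase ASK1, was 4.24, 6.52 and 3.83 CPM in Con and 7.22, 11.8 and 17.1 CPM in Van, a difference of 1.30 on the log2 scale (SE 0.31, adjusted p = 0.0777 from edgeR). It was called by edgeR with no filter on low counts (1.31, adjusted p = 0.0485) and without Van replicate 1 (1.57, adjusted p = 0.0474), with adjusted p between 0.103 and 0.250 when another mouse was left out.

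Of 10 kinases activated by MAPKs, 1 was called. Mknk2, a kinase downstream of ERK that phosphorylates the translation factor eIF4E, was 335, 325 and 327 CPM in Con and 463, 419 and 413 CPM in Van. All 3 Van mice were above all 3 Con mice (log2 fold change 0.39, SE 0.06, adjusted p = 0.0227 from edgeR). Without Con replicate 1, 2 or 3 or Van replicate 2 it was no longer called, with adjusted p between 0.0548 and 0.108 and differences of 0.38 to 0.41 on the log2 scale. limma called none of the 10, and DESeq2, which called 6.10% of all genes, called 2.

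**Figure D5:**
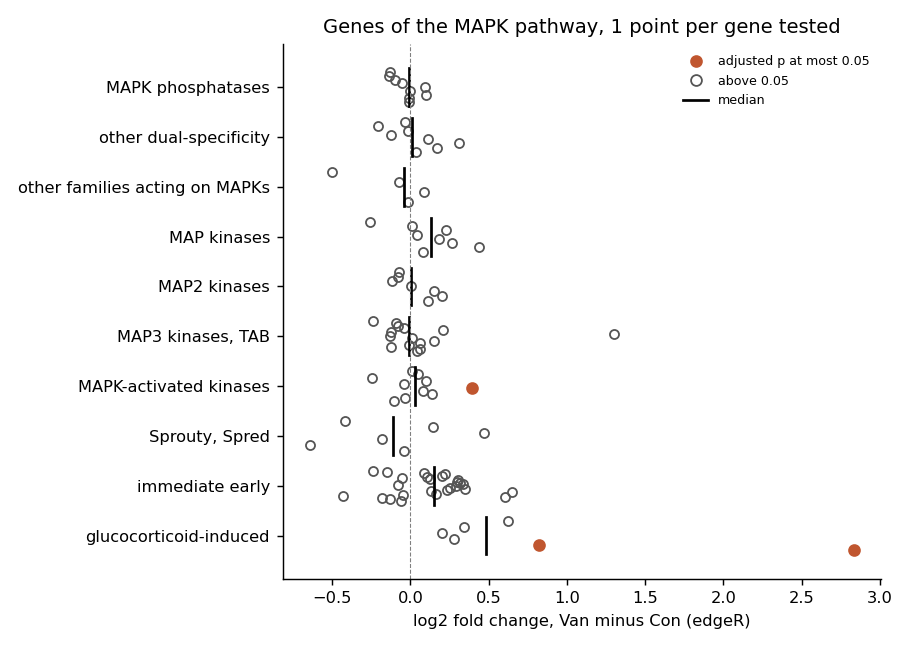
Log2 fold change, Van over Con (horizontal axis), of the genes tested in the phosphatase set and in the MAPK pathway lists, with 1 point per gene, filled points for genes called by edgeR and a bar at the median of each list. The phosphatase genes lie between -0.14 and 0.10, and filled points are Mknk2 and, among glucocorticoid-induced genes, Fkbp5 and Klf9. Dusp8, Dusp9 and the ERK output list are not drawn.

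Feedback inhibitors and targets of ERK were counted beside Dusp6. Of 7 Sprouty and Spred genes, 6 were tested and none was called by edgeR or limma. DESeq2, which called 6.10% of all genes, called 1. Spred2, an inhibitor of RAF activation, was 28.0, 33.7 and 41.3 CPM in Con and 26.1, 23.0 and 16.8 CPM in Van, a difference of -0.64 on the log2 scale (SE 0.18, adjusted p = 0.118 from edgeR). Of 10 genes known as ERK output, a list that also holds some Sprouty and Spred genes, 9 were tested, 1 was called lower and none higher, DESeq2 called 2, and 3 were lower at an unadjusted p under 0.05, where 8.14% of all genes were lower. Ccnd1, which encodes cyclin D1, was 43.0, 40.5 and 43.0 CPM in Con and 33.2, 33.7 and 31.8 CPM in Van, a difference of -0.36 on the log2 scale (SE 0.06, adjusted p = 0.0323 from edgeR). The groups did not overlap, and 23.4% of its exonic bases are shared with a gene on the other strand. Whichever of the 6 mice was left out, Ccnd1 was no longer called, with adjusted p between 0.0759 and 0.136 and differences of -0.33 to -0.38 on the log2 scale, and limma called none of the list.

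Immediate early genes, which are induced together with Dusp1 in many cells, were counted beside it. All 26 were tested, none was called by edgeR or limma, and DESeq2, which called 6.10% of all genes, called 4. At an unadjusted p under 0.05, 10 of the 26 were higher and none lower, where 8.37% of all genes were higher. Their median log2 fold change was 0.15, but 0.048 without Van replicate 1, 0.085 without Con replicate 2 and 0.23 without Con replicate 3. Ier2, with the smallest p, was 294 ± 7.19 CPM in Con and 346 ± 14.8 CPM in Van (SD, n = 3), a difference of 0.23 on the log2 scale (adjusted p = 0.0727 from edgeR). Jun was 475 ± 78.6 CPM in Con and 580 ± 44.5 CPM in Van (0.29, adjusted p = 0.263, and 0.16 without Con replicate 1).

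Fos, Egr1 and Zfp36 had fitted changes below 0. Fos had a log2 fold change of -0.05 (SE 0.22, adjusted p = 0.947 from edgeR). Egr1 was 193, 357 and 274 CPM in Con and 243, 221 and 264 CPM in Van (-0.18, adjusted p = 0.713). Zfp36, which encodes the mRNA-destabilising protein tristetraprolin and is controlled by p38, was 2112, 2972 and 1931 CPM in Con and 1868, 1884 and 2184 CPM in Van (-0.24, adjusted p = 0.477, and -0.031 without Con replicate 2). Like Dusp1, each was highest in Con replicate 2, and each had Van replicate 3 as its highest Van mouse. Nr4a1, an orphan nuclear receptor required by nonclassical monocytes, was 3266, 3402 and 3445 CPM in Con and 4403, 3347 and 3146 CPM in Van, highest in Van replicate 1 and lowest in Van replicate 3 as were Dusp5, Dusp10 and Dusp16. The part of handling time or of isolation in these values was not tested, and the labels give neither.

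Dusp1 is also a known target of the glucocorticoid receptor, and 6 genes induced by glucocorticoids were set beside it. Of these, 2 were called higher, against 1.08% of all genes, and 6 of 6 had no overlap between the groups, against 22.5%. The list was written with these results known. Fkbp5, which encodes a chaperone that damps the receptor, was 16.2, 24.1 and 16.0 CPM in Con and 107, 110 and 185 CPM in Van, a difference of 2.84 on the log2 scale (SE 0.25, adjusted p = 0.00281 from edgeR). Klf9, a transcription factor, was 52.9 ± 3.06 CPM in Con and 93.7 ± 8.05 CPM in Van (SD, n = 3), a difference of 0.82 on the log2 scale (adjusted p = 0.00443). Tsc22d3, which encodes GILZ, was 326 ± 34.8 CPM in Con and 413 ± 21.5 CPM in Van (0.34, adjusted p = 0.0771), and Per1, a clock gene, was 444 ± 25.5 CPM in Con and 539 ± 74.3 CPM in Van (0.28, adjusted p = 0.191, and 0.16 without Van replicate 1). In the same libraries the mean of Dusp1 differed between the groups by less than the SD of either group.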

How the data were processed

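The authors aligned reads to GRCm38 with HISAT2 2.2.1 and SAMtools 1.9, and made the deposited FPKM values with StringTie 2.1.3 and Ballgown. The deposited estimated counts were made by the authors from these with tximport. They follow coverage at an assumed read length of 75, where reads of 100 are stated, so a count is not a fragment. The annotation release, the handling of multiply aligned reads and the use of strand are not given in the sources used here.

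The 9 genes and all lists were chosen with earlier results of these data known. Counts were rounded and fitted over all genes in R 4.3.3 with edgeR 4.0.16 (TMM, filter at a minimum count of 10, quasi-likelihood test with group as the only term). A gene was called at a Benjamini-Hochberg adjusted p of at most 0.05. P-values of the fits set the difference between groups against the variation among these libraries only, counting error included. Within a list, the genes called and the gene with the smallest p were named. Also named were Fos, Jun, Egr1, Ier2, Nr4a1, Zfp36, Fkbp5, Tsc22d3, Per1, and the 3 genes most alike in profile to Dusp1 (highest mean FPKM) and Dusp3 (smallest p). Alternatives used DESeq2 1.42.0, limma 3.58.1, other scalings and filters, and each mouse left out in turn. The tests were also run on simulated counts with known changes. Those changes were larger than the ones fitted for the 9 genes, so the run gives no power for these genes. Protein sequences were not used here. Coordinates are those of GENCODE M21.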

Additional observations from a re-analysis of the deposited data

How the results depend on the processing

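None of the 9 phosphatase genes was called under any of the 11 alternatives that keep all libraries, nor in the 6 fits that leave out a mouse. Dusp3 stayed above 0 and Dusp6 below 0 in all of them, while the direction of the other 7 turned in at least 1. With the replicate number as a block the log2 fold change was 0.024 for Dusp1 and 0.00070 for Dusp2. In limma on log2(FPKM + 1), with and without a filter, and on log2(FPKM + 0.1) it was 0.051, 0.051 and 0.051 for Dusp1, 0.00010, 0.00010 and 0.0079 for Dusp4, and 0.028, 0.028 and 0.028 for Fos. Leaving out each mouse gave -0.18 to 0.27 for Dusp1, -0.12 to 0.13 for Dusp2, 0.02 to 0.15 for Dusp3, -0.20 to 0.15 for Dusp4, -0.37 to 0.069 for Dusp5, -0.24 to -0.02 for Dusp6, -0.23 to 0.0095 for Dusp7, -0.36 to 0.17 for Dusp10, -0.23 to 0.31 for Dusp16, -0.22 to 0.26 for Fos, -0.38 to 0.056 for Egr1 and -0.054 to 0.20 for Nr4a1.

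Over all genes, 322 were called by edgeR, 984 by DESeq2, 110 with the block, 21 by limma at a pseudocount of 1, 4 at 0.1 and 24 without a filter, and 21 to 136 when a mouse was left out. Of the genes on the pathway, immediate early and glucocorticoid lists, 4 were called by edgeR (Mknk2, Ccnd1 and the glucocorticoid-induced Fkbp5 and Klf9), 19 by DESeq2, 2 with the block, 2, 0 and 0 by limma in the same order (the 2 on the glucocorticoid list), and 2 to 4 when a mouse was left out. In the level order, 7 of 9 genes kept their rank per kilobase of exons. Over all genes tested, samples of the same replicate number did not deviate together (correlations 0.025, -0.0019 and -0.073). A correlation over all genes cannot show whether some genes follow the replicate number, and the labels give no pairing. With the block, Mknk2 and Ccnd1 were no longer called (adjusted p = 0.0505 and 0.0987), and Fkbp5 and Klf9 were. In limma Fkbp5 and Klf9 were called on log2(FPKM + 1) values but not at 0.1 or without a filter. The cause of these changes was not tested. How far counting error, as against the spread between mice, sets the intervals was not tested.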
